A study of Mus musculus with 18 samples.

Results

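Bile duct cell markers are described here in 18 liver libraries: Krt7, Krt19, Krt23, Epcam, Cdh1, Sox9, Spp1 and Wfdc2. These 8 genes, of 24040 genes in the deposited table, were chosen by name as genes of biliary epithelium and of ductular cells, and each is represented by its RefSeq transcript with the highest mean over the 18 libraries. PolyA RNA of whole liver was sequenced from wild-type C57BL/6J mice, with 3 libraries in each of 6 groups. On each of the diets LF and HF there was a group without further treatment, a group with CR and a group with Ex. LF and HF are read as low-fat and high-fat diet, CR as caloric restriction and Ex as exercise, from knowledge of such studies, because the labels give only the abbreviations. Diet and treatment began at 5 weeks of age and the liver was taken at 62 weeks in every group. Neither sex nor the number of animals behind a library is given in the labels. The p-values therefore cover the spread between libraries, which may be technical.

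Bile ducts are lined by cholangiocytes, which modify and conduct the bile that hepatocytes secrete. Cholangiocytes carry the keratins of simple ducts and adhesion proteins that most hepatocytes lack, so their transcripts form a small part of the RNA of a whole liver. In chronic injury the ducts branch and multiply in what is called a ductular reaction, in which cells at the duct margins express biliary genes together with osteopontin. In whole tissue, fewer cells of a type and less RNA per cell cannot be told apart.

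Promoter sequences on GRCm38.p6 were examined for the members with an entry in the promoter set, which are Epcam, Krt7, Krt23, Spp1 and Wfdc2. The set holds no entry for Krt19, Sox9 and Cdh1, so their promoters were not examined. Those printed are Epcam, Krt7 and Spp1, which were highest in the same pair of libraries, and Wfdc2, which was lowest in a library of that pair. Each run is the 250 bases that precede the annotated start, read 5′ to 3′ on the strand of the gene, and capitals mark CACCTG or its reverse complement CAGGTG. These letters are the E2 box, known as a binding site of the ZEB and SNAIL repressors of epithelial genes. The window of Epcam is chr17:87635729-87635978 on the plus strand, that of Krt7 is chr15:101412153-101412402 on the plus strand, that of Spp1 is chr5:104434861-104435110 on the plus strand, and that of Wfdc2 is chr2:164562465-164562714 on the plus strand.
Epcam: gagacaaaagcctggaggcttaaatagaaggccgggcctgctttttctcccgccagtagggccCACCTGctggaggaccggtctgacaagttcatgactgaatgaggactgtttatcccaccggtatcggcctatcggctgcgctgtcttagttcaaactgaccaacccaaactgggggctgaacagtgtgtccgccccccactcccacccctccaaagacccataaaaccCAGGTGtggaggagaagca
Krt7: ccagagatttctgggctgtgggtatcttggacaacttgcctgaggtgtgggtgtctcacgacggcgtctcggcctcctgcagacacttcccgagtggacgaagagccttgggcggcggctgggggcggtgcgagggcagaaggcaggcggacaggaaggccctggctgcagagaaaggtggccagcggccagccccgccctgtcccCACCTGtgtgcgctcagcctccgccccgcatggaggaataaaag
Spp1: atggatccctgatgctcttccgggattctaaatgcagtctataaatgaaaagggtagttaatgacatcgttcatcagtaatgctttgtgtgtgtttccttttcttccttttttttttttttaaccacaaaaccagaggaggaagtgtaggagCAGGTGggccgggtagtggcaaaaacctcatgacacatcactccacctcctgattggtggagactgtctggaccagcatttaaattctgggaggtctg
Wfdc2: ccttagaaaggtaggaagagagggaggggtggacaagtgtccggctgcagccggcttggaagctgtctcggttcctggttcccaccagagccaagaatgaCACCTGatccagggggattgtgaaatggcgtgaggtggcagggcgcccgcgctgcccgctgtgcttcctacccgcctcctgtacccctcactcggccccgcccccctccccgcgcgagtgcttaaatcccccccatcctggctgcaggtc

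The E2 box letters stood in 5 of the 5 promoters, with 2 matches in Epcam and 1 in each of Krt7, Krt23, Spp1 and Wfdc2. Among all 27025 promoter windows of the same length, 4620 held them, or 17.1%. On both strands the HNF1 core GTTAAT was found in 1 of the 5 (Spp1) against 6.52% of all windows, the RBPJ element GTGGGAA in 1 (Wfdc2) against 5.41%, and the TATA box letters TATAAA in 1 (Spp1) against 13%. Neither the SOX core AACAAT (9.65% of all windows) nor the TEAD element GGAATG (12.6%) was found in the 5. No match overlapped another. A match is a run of letters and not a measured binding site.

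Values are RPKM, fragments scaled to transcript length and library size, so levels of different genes can be set side by side. Depth was estimated from the steps between the lowest values at 22.4 to 42.7 M fragments per library, with 32.4 M in LF 2 and 28.2 M in HF+CR 3. At that depth 1 fragment on a transcript of 2000 bases is worth 0.0117 to 0.0223 RPKM. A group level is given as its mean ± SD (n = 3 libraries). A difference is given on the log2(RPKM + 1) scale with its SE by limma, and p-values were adjusted over the 10358 genes that reached 1 RPKM in at least 3 libraries. A gene was called at an adjusted p under 0.05. Some groups are said below not to overlap, or to lie wholly above or below another group. The share of all genes with such a separation of 2 groups was not computed, so it is a description only. All 8 markers were above 0 in all 18 libraries, and 7 entered the tests. Sox9 did not, since only 2 libraries reached 1 RPKM, and Krt7 and Epcam entered with exactly 3 such libraries.

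Libraries that stand apart touch these genes. LF 2 and HF+CR 3, already known from earlier work on these data to stand out in biliary genes, were the 2 highest of the 18 libraries for Krt7, Epcam, Sox9 and Spp1, or 4 of the 8 markers. Of all genes tested, 4.8% had the same 2 libraries on top. The pair was named when the markers were chosen, Sox9 is not among the genes tested, and Krt7 and Epcam were tested only because these libraries are high, so nothing is read from the count. LF+CR 1, LF+Ex 1 and HF+CR 1 carried pancreatic acinar transcripts, with Ctrb1, a chymotrypsinogen, at 615, 7.32 and 64.5 RPKM against at most 1.34 RPKM in the other 15 libraries. The summed level of 7 acinar genes there was 1394, 33.4 and 273 RPKM against 5.01 to 38.6 RPKM, so that by the sum LF+Ex 1 lay within the range of the others. Comparisons are therefore given with and without each set of libraries where a call or a direction depends on it.

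**Figure D1:**
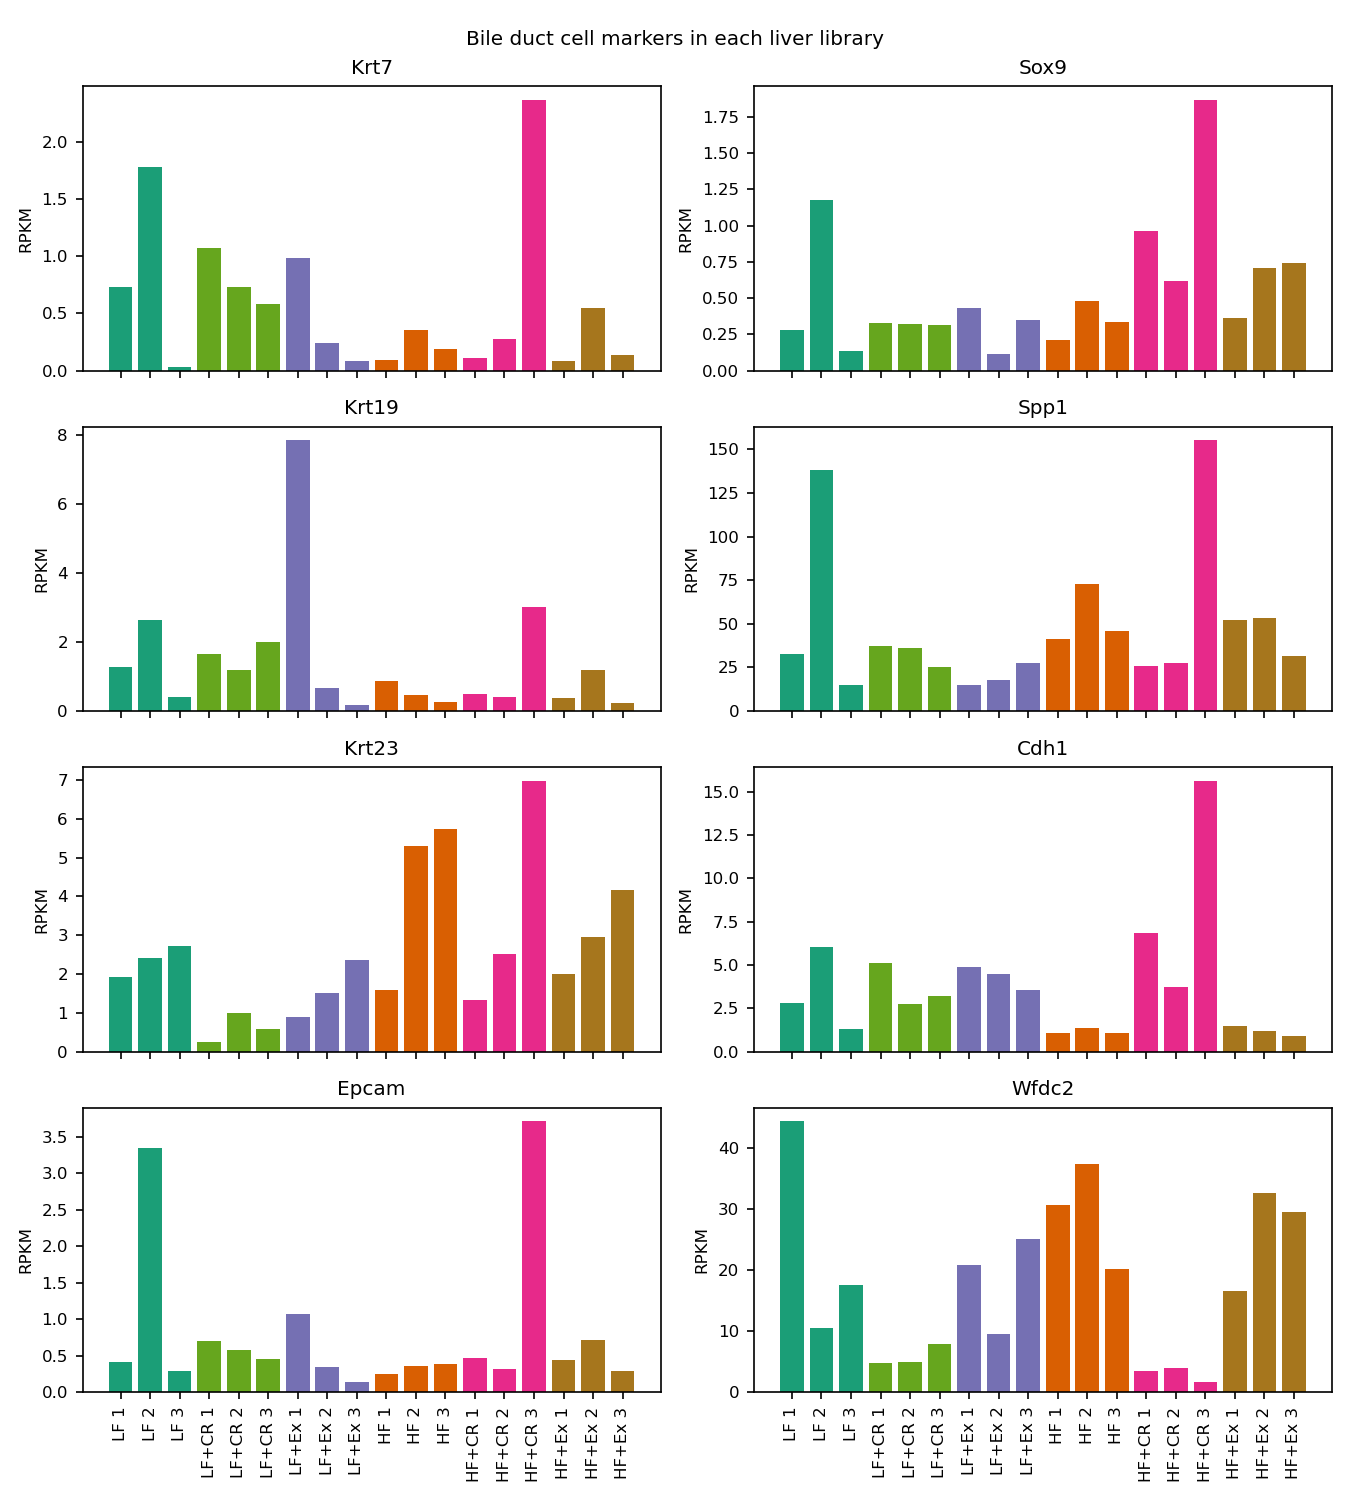
RPKM (vertical axis, from 0, with its own scale in each panel) of the 8 markers in each of the 18 libraries (horizontal axis), with 1 bar per library coloured by group. LF 2 and HF+CR 3 are the 2 tallest bars for Krt7, Epcam, Sox9 and Spp1, while Wfdc2 is low in all 6 CR libraries.

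Krt7, on chromosome 15 (101412403 to 101427806, GRCm38.p6), encodes a type II keratin of duct epithelium. Its level was 0.730, 1.78 and 0.0278 RPKM in LF 1, 2 and 3, then 1.07, 0.727 and 0.585 RPKM in LF+CR and 0.981, 0.241 and 0.0828 RPKM in LF+Ex. On the HF diet it was 0.0883, 0.353 and 0.184 RPKM without further treatment, 0.110, 0.279 and 2.37 RPKM in HF+CR, and 0.0860, 0.549 and 0.135 RPKM in HF+Ex. Thus LF 2 and HF+CR 3 were 6.84 and 9.11 times the median of the other 16 libraries, and every group overlapped its neighbour in the order of group means. The LF 3 value is close to what 1 fragment is worth at its depth.

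Krt19 (chromosome 11, 100140810 to 100145926) encodes the type I keratin most used to mark bile ducts. Values were 1.27, 2.64 and 0.406 RPKM in LF, 1.65, 1.19 and 2.0 RPKM in LF+CR, and 7.87, 0.661 and 0.172 RPKM in LF+Ex. They were 0.868, 0.453 and 0.259 RPKM in HF, 0.488, 0.398 and 3.03 RPKM in HF+CR, and 0.388, 1.18 and 0.233 RPKM in HF+Ex. Here the highest library was LF+Ex 1, followed by HF+CR 3 and LF 2. Every group overlapped its neighbour in the order of group means. LF+CR, from 1.19 RPKM, lay above HF (up to 0.868 RPKM) and barely above HF+Ex (up to 1.18 RPKM). Neither of these pairs of groups was tested. LF+Ex 1 is a library with acinar transcripts. The libraries with more of them, LF+CR 1 and HF+CR 1, had Krt19 at 1.65 and 0.488 RPKM, and the part of pancreatic RNA in the LF+Ex 1 value was not tested.

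Krt23 (chromosome 11, 99477973 to 99493120) encodes a type I keratin that is induced in ductular reactions and in stressed liver. It stood at 1.92, 2.42 and 2.71 RPKM in LF, at 0.257, 0.995 and 0.577 RPKM in LF+CR, and at 0.898, 1.51 and 2.36 RPKM in LF+Ex. In HF it stood at 1.60, 5.31 and 5.75 RPKM, in HF+CR at 1.33, 2.51 and 6.99 RPKM, and in HF+Ex at 2.0, 2.94 and 4.16 RPKM. All 3 LF+CR libraries were below all 3 LF libraries and all 3 libraries of each HF group. Krt23 was highest in HF+CR 3 but was only the eighth of 18 in LF 2, at 1.23 times the median of the other 16.

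Epcam (chromosome 17, 87635979 to 87651127) encodes an adhesion protein of the duct cell surface and is a common marker for isolating these cells. It was at 0.406, 3.35 and 0.284 RPKM in LF, 0.702, 0.575 and 0.456 RPKM in LF+CR, and 1.07, 0.342 and 0.132 RPKM in LF+Ex. On the HF diet it was at 0.250, 0.354 and 0.382 RPKM in HF, 0.469, 0.316 and 3.72 RPKM in HF+CR, and 0.443, 0.713 and 0.294 RPKM in HF+Ex. Among the 8 markers Epcam set LF 2 and HF+CR 3 furthest apart from the rest, at 8.50 and 9.43 times the median of the other 16 libraries, whose highest value was 1.07 RPKM. No pair of neighbouring groups was separate.

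Cdh1 (chromosome 8, 106603350 to 106670247) encodes E-cadherin, the adherens junction protein of duct cells, which hepatocytes around the portal vein also make. The LF libraries held 2.79, 6.04 and 1.31 RPKM, the LF+CR libraries 5.14, 2.72 and 3.19 RPKM, and the LF+Ex libraries 4.88, 4.50 and 3.53 RPKM. The HF libraries held 1.08, 1.35 and 1.07 RPKM, the HF+CR libraries 6.81, 3.72 and 15.6 RPKM, and the HF+Ex libraries 1.45, 1.17 and 0.877 RPKM. Low values thus lay in HF and HF+Ex, between 0.877 and 1.45 RPKM, and of the 12 other libraries only LF 3 fell within that range. HF+CR 3 was the highest library, and the other HF+CR libraries were also above all HF and HF+Ex libraries.

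Sox9 (chromosome 11, 112782210 to 112787757) encodes a transcription factor that sets and maintains biliary fate. Its RPKM were 0.281, 1.17 and 0.133 in LF, 0.330, 0.319 and 0.316 in LF+CR, and 0.433, 0.116 and 0.350 in LF+Ex. In the HF groups they were 0.213, 0.480 and 0.333 in HF, 0.962, 0.620 and 1.87 in HF+CR, and 0.363, 0.707 and 0.743 in HF+Ex. The HF+CR libraries were each above the 3 HF libraries, but Sox9 was too low for the filter and no test was made. LF 2 and HF+CR 3 were again on top, at 3.44 and 5.48 times the median of the other 16.

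Spp1 (chromosome 5, 104435111 to 104441053) encodes osteopontin, a secreted matrix protein made by duct cells and also by macrophages and activated stellate cells. It was the most abundant of the 8 markers, with 32.5, 138 and 14.7 RPKM in LF, 37.1, 36.3 and 25.4 RPKM in LF+CR, and 14.7, 17.9 and 27.7 RPKM in LF+Ex. The HF libraries stood at 41.4, 72.9 and 45.6 RPKM, the HF+CR libraries at 26.1, 27.6 and 155 RPKM, and the HF+Ex libraries at 52.3, 53.6 and 31.6 RPKM. The pair LF 2 and HF+CR 3 stood at 4.31 and 4.84 times the median of the others, and HF 2 came next. Spp1 has 5 RefSeq transcripts in the table, and the one used held 94.1% to 100% of their sum.

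Wfdc2 (chromosome 2, 164562715 to 164568510) encodes a secreted protein of the whey acidic protein family found in many duct epithelia. It stood at 44.5, 10.6 and 17.5 RPKM in LF, at 4.80, 5.00 and 7.92 RPKM in LF+CR, and at 20.9, 9.57 and 25.1 RPKM in LF+Ex. It stood at 30.7, 37.5 and 20.3 RPKM in HF, at 3.47, 3.92 and 1.70 RPKM in HF+CR, and at 16.5, 32.6 and 29.5 RPKM in HF+Ex. Unlike the other markers it was lowest in HF+CR 3, at 0.090 times the median of the 16 libraries, and below that median in LF 2. The 6 CR libraries, from 1.70 to 7.92 RPKM, were all below the 12 others, from 9.57 to 44.5 RPKM, a separation shown by 0.174% of all genes tested.

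**Figure D2:**
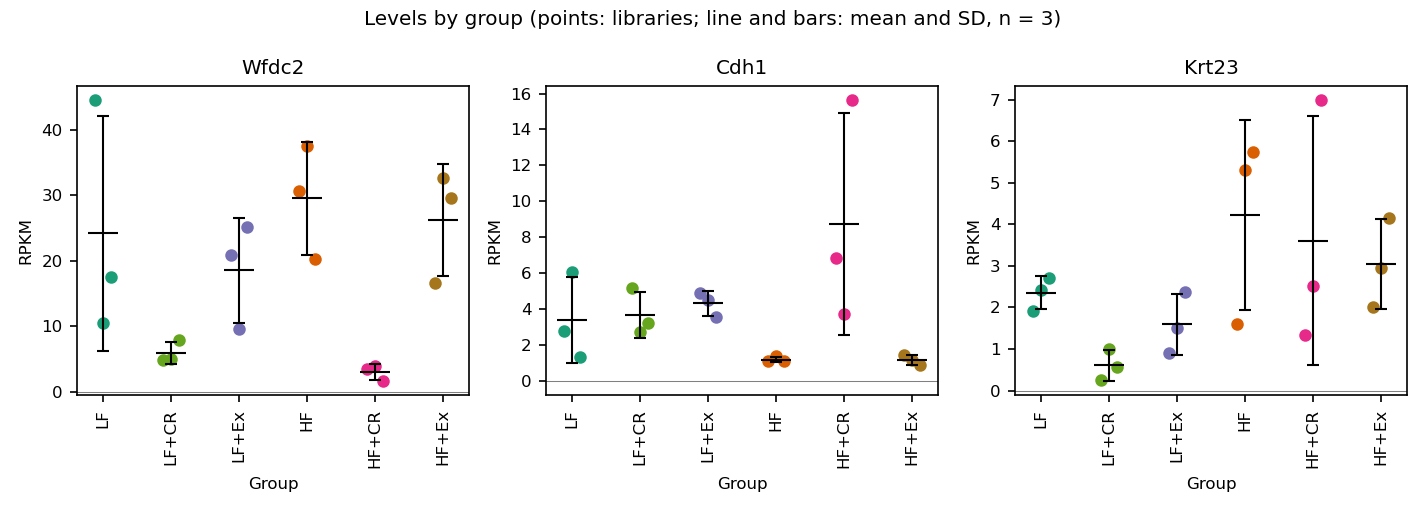
RPKM (vertical axis) of Wfdc2, Cdh1 and Krt23 in the 6 groups (horizontal axis), with points for libraries and a line with bars for the mean and SD of 3 libraries. Wfdc2 is low in LF+CR and HF+CR, Cdh1 is low in HF and HF+Ex, and Krt23 is lowest in LF+CR.

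CR on the HF diet was accompanied by calls of 2 of the 7 tested markers, in opposite directions. These 2, Cdh1 and Wfdc2, were the markers that followed the other markers least over the 18 libraries, as given below. Cdh1 rose from 1.17 ± 0.158 RPKM in HF to 8.73 ± 6.18 RPKM in HF+CR (both SD, n = 3), a log2 difference of 1.97 ± 0.39 by limma (adjusted p = 0.0231). Wfdc2 fell from 29.5 ± 8.68 to 3.03 ± 1.17 RPKM, a log2 difference of -2.92 ± 0.45 (adjusted p = 0.00798). Neither gene's groups overlapped, and by the same test 0.628% of all genes were called higher and 0.772% lower. Without LF 2 and HF+CR 3 both calls held, with Cdh1 at 1.49 ± 0.26 and Wfdc2 at -2.66 ± 0.43. Of 27 alternatives, the Wfdc2 call was lost only without HF 2 (adjusted p = 0.0684), whereas the Cdh1 call was lost without HF 1, HF 2, HF 3 or HF+CR 1 (0.0740 to 0.0936), without the 3 libraries with acinar transcripts (0.109) and with only these 2 groups in the fit (0.131).

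The other 5 tested markers did not pass the test in HF+CR against HF (limma, adjusted p from 0.564 to 0.973). Their log2 differences were 0.49 ± 0.39 for Krt7, 0.43 ± 0.59 for Krt19, -0.25 ± 0.41 for Krt23, 0.65 ± 0.45 for Epcam and -0.092 ± 0.68 for Spp1. The positive values of Krt7, Krt19 and Epcam rest on HF+CR 3, as the values by library show, and without LF 2 and HF+CR 3 the Krt19 difference was -0.063. Intervals were wide, as for Epcam from -0.31 to 1.62 and for Spp1 from -1.54 to 1.36.

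CR on the LF diet was accompanied by a fall of 1 marker, Wfdc2. It was 24.2 ± 17.9 RPKM in LF and 5.91 ± 1.74 RPKM in LF+CR, a log2 difference of -1.66 ± 0.45 by limma (adjusted p = 0.0405), where 3.49% of all genes were called lower. The 2 groups did not overlap. The call depended on the libraries: it was lost without LF 1, LF+CR 1, LF+CR 2, LF+CR 3, HF 1 or HF+Ex 3, and without LF 1, the highest Wfdc2 library, the difference was -1.11 (adjusted p = 0.186). It was also lost with no filter (0.0701), with only these 2 groups in the fit (0.111) and with the replicate number as a block (0.0585). Without LF 2 and HF+CR 3 it was -2.10 ± 0.43 (adjusted p = 0.0128), and without the 3 libraries with acinar transcripts -1.55 ± 0.54 (adjusted p = 0.172).

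Krt23 had the next largest difference in LF+CR against LF, from 2.35 ± 0.399 to 0.609 ± 0.370 RPKM, without overlap. Its log2 difference was -1.08 ± 0.41 and missed the threshold (limma, adjusted p = 0.136), though it passed with only the 2 groups in the fit (0.0377) and with the replicate number as a block (0.0321). Krt7, Krt19, Epcam, Spp1 and Cdh1 lay between -0.34 and 0.21, with overlapping groups. Spp1 turned from -0.32 to 0.55 when LF 2 was left out together with HF+CR 3.

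Whether the CR difference differed between the diets was tested as an interaction, which called 0 of the 7 markers against 1.02% of all genes (limma). At an unadjusted p under 0.05 there was 1 marker, Cdh1, whose CR difference was 1.76 ± 0.56 higher on the HF diet (adjusted p = 0.181). Wfdc2 had an interaction of -1.27 ± 0.64 (adjusted p = 0.471). Its fall under CR was therefore not shown to differ between diets, with an interval of that difference from -2.62 to 0.09.

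The diet comparison without treatment called 0 of the 7 markers, where 0.405% of all genes were called. At an unadjusted p under 0.05 there was again 1, Cdh1, at 3.38 ± 2.42 RPKM in LF and 1.17 ± 0.158 RPKM in HF. The log2 difference was -0.87 ± 0.39 (limma, adjusted p = 0.278), and it was -0.45 ± 0.26 without LF 2 and HF+CR 3. Krt23 was 0.53 ± 0.41 and Wfdc2 0.47 ± 0.45 higher in HF, and neither passed the test (adjusted p = 0.549 and 0.634). Spp1 was 0.33 ± 0.68 higher with all libraries and 1.20 ± 0.35 higher without LF 2 and HF+CR 3 (adjusted p = 0.0979).

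Between the diets under CR, 0 of the 7 markers passed, against 9.77% of all genes. Krt23 came close, at 0.609 ± 0.370 RPKM in LF+CR and 3.61 ± 2.99 RPKM in HF+CR, without overlap. Its log2 difference was 1.35 ± 0.41 (limma, adjusted p = 0.0503), 0.86 ± 0.38 without LF 2 and HF+CR 3 (0.157), and called with the replicate number as a block (0.00778). Cdh1 was 0.90 ± 0.39 higher in HF+CR (adjusted p = 0.160). Wfdc2 was 0.80 ± 0.45 lower there, with each HF+CR library below each LF+CR library, and did not pass (adjusted p = 0.278).

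Between the diets under exercise, 0 of the 7 passed, against 5.15% of all genes. Cdh1 was at 4.30 ± 0.695 RPKM in LF+Ex and 1.17 ± 0.286 RPKM in HF+Ex, without overlap, with a log2 difference of -1.29 ± 0.39 (limma, adjusted p = 0.0678). Spp1 was at 20.1 ± 6.79 and 45.8 ± 12.3 RPKM, also without overlap, with a difference of 1.16 ± 0.68 (adjusted p = 0.337). Both were called when LF 2 and HF+CR 3 were left out, which changes only the shared spread here because neither library is in these groups. Cdh1 then had an adjusted p of 0.00536 and Spp1 of 0.0321. Krt19 turned from -0.74 to 0.15 when the libraries with acinar transcripts were left out, LF+Ex 1 among them.

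Exercise itself was not accompanied by a call among these markers on either diet. In LF+Ex against LF and in HF+Ex against HF limma called 0 of 7 markers and 0% of all genes, with 944 and 377 genes at an unadjusted p under 0.05 and none of the markers among them. The marker furthest from 0 was Spp1 in LF+Ex against LF, at -1.03 ± 0.68, and Krt23 in HF+Ex against HF, at -0.29 ± 0.41. The median of all genes in LF+Ex against LF was itself -0.13. The interaction of exercise with diet also called 0 markers and 0% of all genes, with 525 genes and 0 markers at an unadjusted p under 0.05. LF enters 3 of the 7 comparisons of groups and HF enters 3, so that differences from the same group are not independent of each other.

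**Figure D3:**
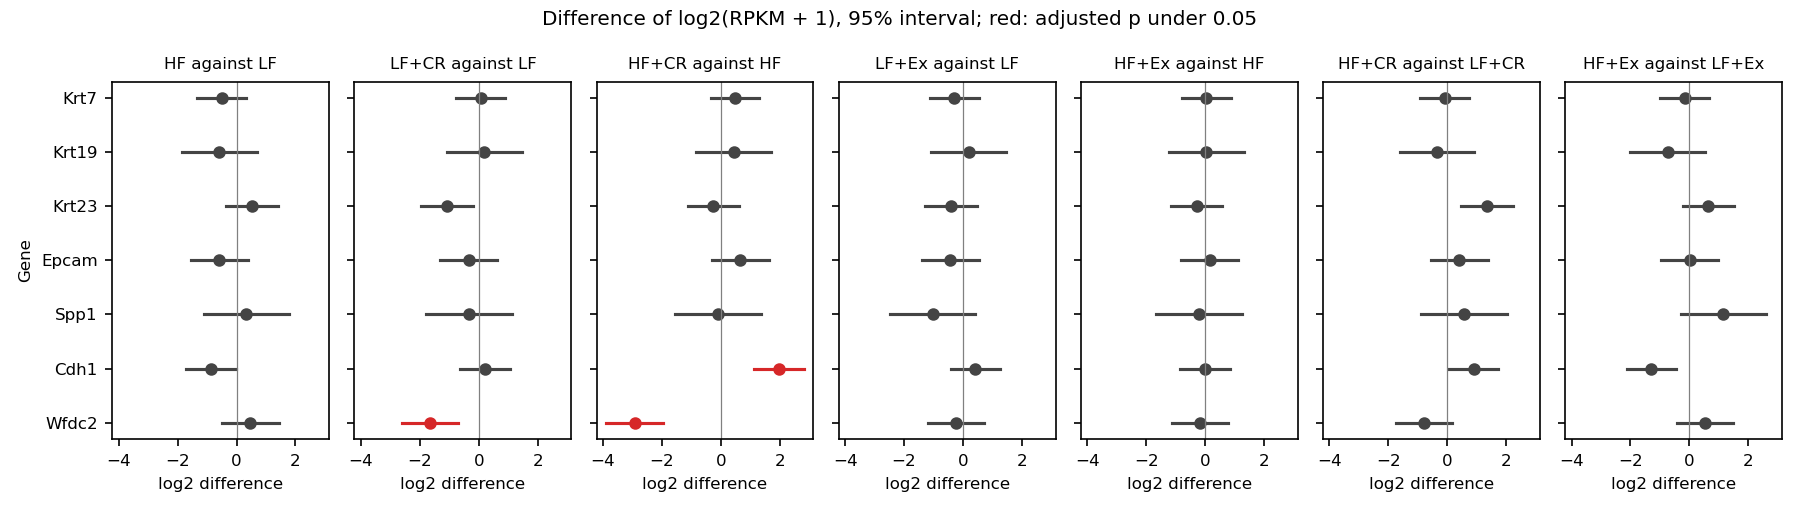
Log2 difference of RPKM + 1 (horizontal axis) of the 7 tested markers (vertical axis) in 7 comparisons, with points for the limma estimate, lines for the 95% interval and red for an adjusted p under 0.05. The called differences are Wfdc2 in LF+CR against LF (-1.66) and Cdh1 (1.97) and Wfdc2 (-2.92) in HF+CR against HF.

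The 8 markers did not vary as a single set over the libraries. Over all 18, the correlation of log2(RPKM + 1) was 0.89 for Krt7 with Epcam, 0.78 for Krt7 with Krt19 and 0.67 for Krt19 with Epcam. Without LF 2 and HF+CR 3 these stood at 0.78, 0.78 and 0.83 over 16 libraries. Spp1 and Sox9 followed Epcam mainly through that pair: Spp1 with Epcam went from 0.70 to -0.08 and Sox9 with Epcam from 0.77 to 0.20. Cdh1 and Wfdc2 were opposed in both sets, at -0.75 and -0.66, and Cdh1 and Krt23 went from -0.15 to -0.69. Each marker was also set against the mean of the other 7, as deviations from each gene's 18-library mean. Over 18 libraries r was lowest for Wfdc2 (-0.42) and Cdh1 (0.20), and the others had 0.23 (Krt23) to 0.82 (Epcam). Without LF 2 and HF+CR 3 Cdh1 stood at -0.53, Krt23 at -0.16 and Wfdc2 at -0.017. These are descriptions over libraries that share diet groups, and low genes share the limits of depth.

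**Figure D4:**
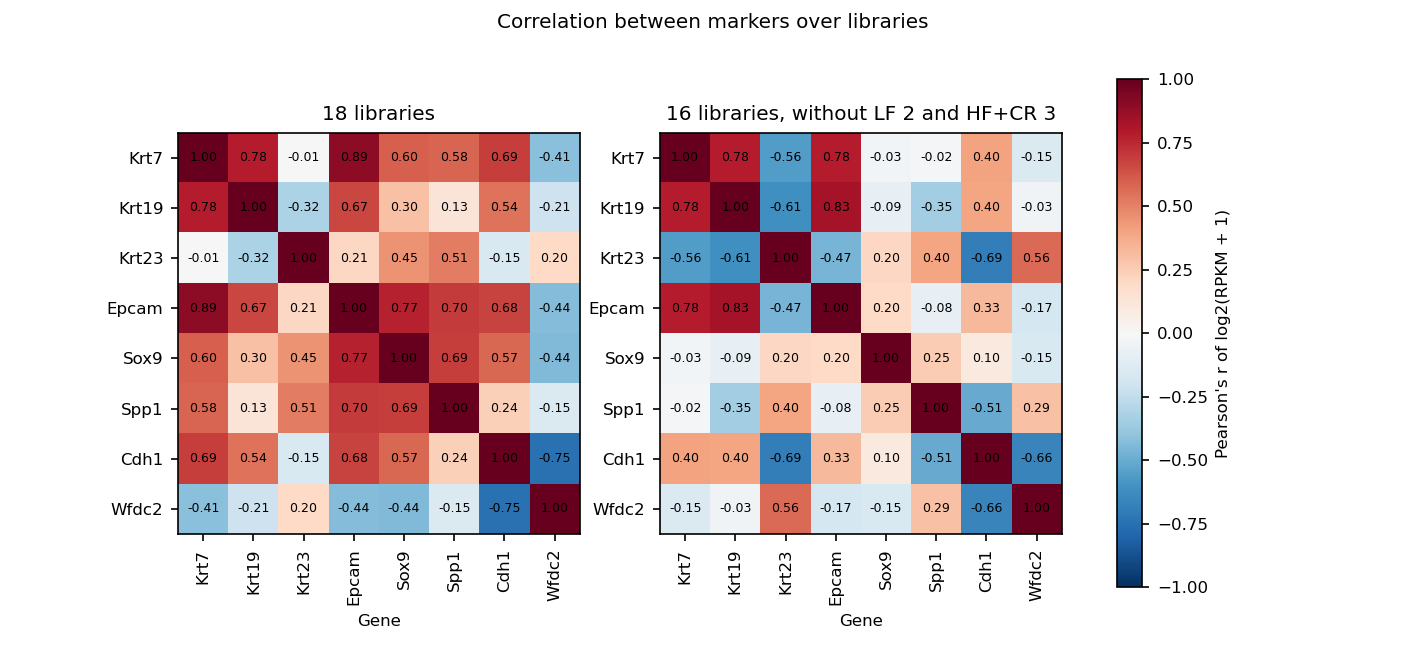
Pearson's r of log2(RPKM + 1) between each pair of markers, over 18 libraries (left) and over the 16 without LF 2 and HF+CR 3 (right), with colour from -1 in blue to 1 in red. Krt7, Krt19 and Epcam keep an r of at least 0.78 in the right panel, while Spp1 and Sox9 lose theirs with Epcam.

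Other genes of bile duct epithelium were also high in LF 2 and HF+CR 3. Of a list of 22, 15 had these libraries as the 2 highest. Only 7 of the 22 passed the filter, so the 15 have no like share among the genes tested and stand as a description. Bicc1, an RNA-binding protein whose loss causes duct and kidney cysts, stood at 3.06 and 3.89 RPKM there and at 0.375 to 1.09 RPKM in the other 16. Cd24a, a surface protein of duct and progenitor cells, stood at 4.95 and 7.74 RPKM against 0.427 to 3.90 RPKM. The most abundant genes of the list were less distinct, with Tm4sf4, a tetraspan membrane protein, at 119 and 104 RPKM against 42.0 to 128 RPKM, and Dsg2, a desmosomal cadherin, at 25.6 and 23.7 RPKM against 17.6 to 27.4 RPKM. None of the 7 tested genes of this list was called in any comparison.

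Lists of other cell types differed in how high they stood in these libraries. Scores used the listed genes with a mean of at least 0.1 RPKM over the 18 libraries. The mean deviation of each list from its 18-library mean of log2(RPKM + 1) was 0.78 in LF 2 and 0.96 in HF+CR 3 for the 8 markers. It was 0.74 and 0.78 for 18 other duct genes. It was 0.50 and 0.90 for 16 genes of stellate cells and portal fibroblasts, 0.78 and 0.64 for 9 macrophage genes, and 0.26 and 0.72 for 8 proliferation genes. HF 2 had a macrophage score of 0.77 as well, with the marker score at 0.22. Col3a1, a fibrillar collagen, was at 11.2 and 26.7 RPKM in LF 2 and HF+CR 3 against 1.68 to 15.3 RPKM elsewhere. Gpnmb, a gene of lipid-laden macrophages, was at 4.26 and 19.6 RPKM against 0 to 5.82 RPKM. Not all genes of these 2 lists stood out. Reln was at 9.98 and 6.13 RPKM against 4.05 to 7.85 RPKM, and Tagln at 4.92 and 8.64 against 2.75 to 9.92 RPKM. Among macrophage genes, Clec4f was at 37.9 and 27.2 RPKM against 18.1 to 61.8 RPKM. Vsig4 was at 16.7 and 11.5 RPKM against 4.29 to 28.1 RPKM. The pair was on top for 4 of 17 listed stellate and portal fibroblast genes and 1 of 10 macrophage genes. The 7 endothelial genes were at -0.033 and 0.014, and the 9 hepatocyte genes at 0.07 and 0.16. The 4 mesothelial genes above that cut were at 0.31 and 0.12, with LF 2 the highest of the 18 libraries. The 4 lymphocyte genes above it were at 0.17 and 0.48, with HF+CR 3 the highest of the 18. Acinar genes were below their mean, at -0.80 and -0.74, as in every library but LF+CR 1, LF+Ex 1 and HF+CR 1. Those libraries raise the mean, and the rest ranged from -0.83 to -0.42. Of 7 genes of intestinal epithelium, Cdx2, Alpi and Sis were listed at 0 in all 18 libraries. Fabp2 was at 50.7 to 214 RPKM, Lgr5 at 0.213 to 2.12 RPKM, Muc2 at 0 to 0.0240 RPKM, and Vil1 at 0 to 0.118 RPKM with HF+CR 3 its highest library. What part these other cells have in the marker values was not tested.

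The summed level of the lists over groups shows how far single libraries carry a group. All 17 listed stellate and portal fibroblast genes summed to 63.7 to 176 RPKM in LF and 89.2 to 187 RPKM in HF+CR, the groups of LF 2 and HF+CR 3. In LF+CR, LF+Ex, HF and HF+Ex the ranges were 93.6 to 100.3, 72.7 to 74.4, 114 to 136 and 119 to 145 RPKM. Macrophage genes summed to 88.8 to 188 RPKM in LF, 67.0 to 103 in LF+CR and 99.4 to 137 in LF+Ex. On the HF diet they summed to 130 to 293 RPKM in HF, 124 to 165 in HF+CR and 187 to 218 in HF+Ex. In both of these lists HF+CR overlapped HF, the comparison in which Cdh1 and Wfdc2 were called. The hepatocyte and intestinal lists did not. The 9 hepatocyte genes summed to 26384 to 28771 RPKM in HF and 33626 to 38109 RPKM in HF+CR, with 8 of the 9 differences above 0. They summed to 27993 to 29729 RPKM in LF and 32122 to 33928 RPKM in LF+CR. There only 5 of the 9 differences were above 0, with a median log2 difference of 0.021. The intestinal list was nearly all Fabp2, so its sum gives the level of that gene rather than of a cell type. It summed to 163 to 215 RPKM in HF and 108 to 134 RPKM in HF+CR. In LF it summed to 111 to 138 RPKM and in LF+CR to 51.7 to 80.3 RPKM. The part of the hepatocyte genes and of Fabp2 in the Cdh1 and Wfdc2 differences was not tested.

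**Figure D5:**
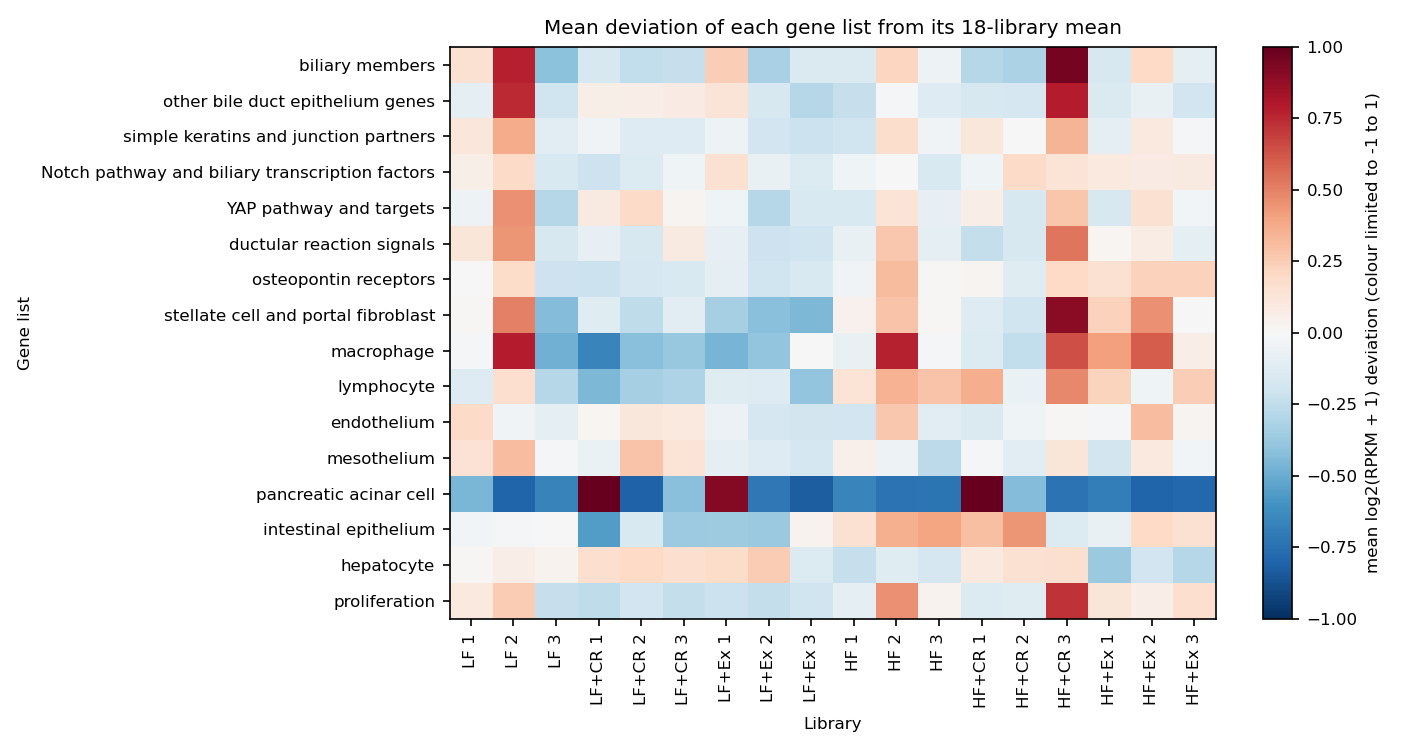
Mean deviation of log2(RPKM + 1) from the 18-library mean for 16 gene lists (rows) in each library (columns), with colour from -1 in blue to 1 in red. LF 2 and HF+CR 3 are red for the markers, the other duct genes, stellate and portal fibroblast genes and macrophage genes, and LF+CR 1, LF+Ex 1 and HF+CR 1 are red for acinar genes.

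Genes that act on bile duct cells were counted in the CR comparisons, where a marker was called. Over all genes tested, 6.5% were called in either direction in LF+CR against LF and 1.4% in HF+CR against HF. Of 13 genes of the Notch pathway and biliary transcription factors, 6 were tested and 0 called in either CR comparison. Notch2, the receptor needed for duct formation, was at 7.69 and 6.78 RPKM in LF 2 and HF+CR 3. The other libraries held 4.81 to 9.05 RPKM of it. That pair was on top for 3 of the 13, Rbpj, Sox4 and Jag2. Rbpj stood at 3.30 and 3.28 RPKM there against 2.12 to 3.07 RPKM elsewhere. Sox4 stood at 1.85 and 1.55 RPKM against 0.0230 to 0.695 RPKM, and Jag2 did not exceed 0.0780 RPKM. Only 6 of the 13 passed the filter, so the 3 stand as a description. Of 9 genes of the YAP pathway, 8 were tested, with 0 called in HF+CR against HF and 2 in LF+CR against LF, where Ccn2, a matricellular target of YAP, rose by 1.66 ± 0.44 (limma, adjusted p = 0.0351) while Amotl2, an angiomotin that binds YAP, fell by 0.45 (0.0319). Of 10 ductular reaction signals 7 were tested, with 0 called in LF+CR against LF and 1 in HF+CR against HF, where Fgfr2, a receptor of FGF7, rose by 0.58 ± 0.13 (0.0417). Tnfrsf12a, the receptor of the ligand TWEAK that drives duct proliferation, had LF 2 and HF+CR 3 as its highest libraries, at 12.1 and 11.6 RPKM against 1.43 to 10.2 RPKM.

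The keratins and junction partners of hepatocytes and ducts were measured for comparison with the markers. Of these 13 genes, all tested, 1 was called in LF+CR against LF (6.5% of all genes) and 0 in HF+CR against HF (1.4%). The 1 was Cldn3, a tight junction claudin, which fell by 0.57 (limma, adjusted p = 0.0312). In HF+CR against LF+CR, with 9.77% of all genes called, 3 of the 13 rose: Cldn1, another claudin, by 2.02 ± 0.34 (adjusted p = 0.00187), Cldn3 by 0.59 ± 0.15 (0.0199) and Cdh2, the cadherin of hepatocyte junctions, by 0.44 ± 0.12 (0.0304). Krt8 and Krt18, the keratin pair of hepatocytes, were at 90.2 to 245 and 113 to 280 RPKM over the 18 libraries. Krt8 rose in HF+Ex against LF+Ex by 1.07 ± 0.29 (adjusted p = 0.0466), as 1 of the 13 against 5.15% of all genes. Of 7 receptors and receptor subunits of osteopontin, 6 were tested and 0 called in the CR comparisons on either diet. In HF+Ex against LF+Ex, where Spp1 was not called, Cd44, a receptor of osteopontin, rose by 1.05 ± 0.22 (limma, adjusted p = 0.0219), as 1 of the 6. In the same comparison the median log2 difference was 0.90 for macrophage genes and 0.54 for stellate and portal fibroblast genes, against 0.076 over all genes. Whether the Cd44 rise is related to Spp1 or to these lists was not tested. Of the 9 hepatocyte genes, Cps1, an enzyme of the urea cycle, rose under CR on both diets, by 0.98 ± 0.19 on LF (0.00650) and 1.03 ± 0.19 on HF (0.0174), and Ttr rose by 0.48 on LF (0.0374). Fabp2, a fatty acid binding protein of the intestinal list, fell by 0.93 on LF under CR (0.0126).

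The genes whose pattern over the 18 libraries was most like the mean deviation of the 8 markers were ranked among 9995 genes. The 10 nearest by Pearson's r were Eln (0.94), Adamtsl2 (0.91), Tmem86a, Mxra8 and Map3k1 (0.90 each), Rhoc, Golm1 and Loxl1 (0.89 each), and Ipo4 and Art4 (0.88 each). Eln, which encodes elastin, was at 2.95 RPKM in LF 2 and 3.27 RPKM in HF+CR 3 and at 0.288 to 1.32 RPKM in the other 16 libraries. Loxl1, an enzyme that crosslinks elastin, was at 2.18 and 3.02 RPKM against 0.230 to 1.72 RPKM. The order depended on the measure: 2 of the 10 stayed among the nearest 10 within groups, 2 without LF 2 and HF+CR 3, 2 by Spearman's rho and 1 with a score that leaves out Krt23 and Wfdc2.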

How the data were processed

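PolyA RNA of 18 mouse liver libraries was used, in 6 groups of 3 by sample title. The authors deposited RPKM for RefSeq transcripts. TopHat 1.4.1, Cufflinks 1.3.0 and mm10 are named in the submitters' processing notes, and the annotation version is not given in the sources used here. Of 30582 transcripts, 29438 were named through RefSeq (GRCm38.p6) and 179 through GENCODE. A gene was represented by its transcript with the highest mean. With no counts deposited, depth is an estimate, and fold changes on the log2(RPKM + 1) scale understate changes of low genes.

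Values were fitted with limma 3.58.1 in R 4.3.3, as log2 of RPKM plus a pseudocount of 1, with a mean per group and an intensity trend. A gene was kept where 3 or more libraries reached 1 RPKM, and p-values are two-sided with Benjamini-Hochberg adjustment over 10358 genes. The fit was tested on simulated data. All 8 markers are named, together with the 10 genes most like their mean deviation, the called genes of each list in comparisons where a marker was called, and up to 4 abundant genes per list. Bicc1, Cd24a, Loxl1, Tnfrsf12a, Gpnmb, Krt8, Cldn1, Cdh2, Cd44, Rbpj, Sox4 and Jag2 were named after their values were seen. The members and lists were chosen with earlier results of these data known. Alternatives were a pseudocount of 0.1, no filter, median-of-ratios scaling, summed transcripts, only the groups compared, a replicate block, no trend, and libraries left out. Values of 2 genes of the list of other duct genes are not reported here.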

Additional observations from a re-analysis of the deposited data

How the results depend on the processing

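The replicate numbers did not pair the libraries: same-numbered libraries of different groups had correlated deviations of -0.49 to 0.31 (median 0.0042), and 3 of 18 correlated best with their own number. With the number as a block, Wfdc2 in LF+CR against LF was no longer called (adjusted p = 0.0585), Krt23 was called in that comparison (0.0321) and in HF+CR against LF+CR (0.00778), which gave 1 marker there, and over all genes the calls in HF against LF went from 42 to 14 and in HF+CR against HF from 145 to 101.

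Over 9 alternatives other than single left-out libraries, 474 of 510 values kept their direction and side of the threshold, 6 lost a call, 12 gained one and 18 reversed. In LF+CR against LF, where 1 marker was called, 0 were with no filter and 0 without the acinar libraries (HF+CR 1, LF+CR 1 and LF+Ex 1). In HF+CR against HF, with 2 called, 1 was with only these groups and 1 without the acinar libraries. In HF+CR against LF+CR 1 marker was called at a pseudocount of 0.1, 1 with median-of-ratios scaling and 1 with summed transcripts. In HF+Ex against LF+Ex 1 was called at a pseudocount of 0.1, 1 with median-of-ratios scaling, 2 with only these groups and 2 without LF 2 and HF+CR 3. Median-of-ratios scaling moved the calls over all genes in HF against LF from 42 to 211 and in HF+Ex against LF+Ex from 428 higher and 105 lower to 464 and 281. With only the groups compared, all-gene calls fell to 0 in HF against LF, 254 in LF+CR against LF (from 673), 31 in HF+CR against HF (from 145), 433 in HF+CR against LF+CR (from 1012) and 65 in the CR by diet interaction (from 106), and rose to 836 in HF+Ex against LF+Ex (from 533). Without LF 2 and HF+CR 3 they were 140 in HF against LF, 391 in HF+CR against HF, 1103 in HF+Ex against LF+Ex and 270 in the CR by diet interaction. Without the acinar libraries they were 12, 28, 30 and 36, with 211 in LF+CR against LF and 128 in HF+CR against LF+CR. At a pseudocount of 0.1 HF against LF gave 21. With single libraries left out, these counts went as low as 0 in HF against LF (without LF 1), 245 in LF+CR against LF (LF+CR 1), 12 in HF+CR against HF (HF 2), 431 in HF+CR against LF+CR (HF+CR 1), 58 in HF+Ex against LF+Ex (LF+Ex 1 or HF+Ex 3) and 45 in the CR by diet interaction (HF+CR 1).

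Reversed differences, none of them called, were as follows, and their cause was not tested beyond the libraries named. Without LF 2 and HF+CR 3: Spp1 0.55 in LF+CR against LF, Krt19 -0.063 in HF+CR against HF, Spp1 -0.27 in HF+CR against LF+CR, Krt19 -0.60 and Spp1 -1.47 in the CR by diet interaction, and Spp1 -0.043 in the Ex by diet interaction. Without the acinar libraries: Cdh1 -0.00301 in LF+CR against LF, Krt23 0.14 and Spp1 0.34 in HF+CR against HF, Krt19 -0.70 in LF+Ex against LF and 0.15 in HF+Ex against LF+Ex, and Krt19 0.74 and Krt23 -0.087 in the Ex by diet interaction. At a pseudocount of 0.1, Krt19 was -0.068 in LF+Ex against LF and 0.11 in the Ex by diet interaction. With median-of-ratios scaling, Cdh1 was 0.016 in HF+Ex against HF, Epcam -0.012 in HF+Ex against LF+Ex and Wfdc2 -0.061 in the Ex by diet interaction.

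With each library left out in turn, 1012 of 1080 values kept direction and side, 11 lost a call, 7 gained one and 50 reversed. The number of markers called ranged from 0 to 1 in LF+CR against LF, from 0 to 2 in HF+CR against HF, from 0 to 1 in HF+CR against LF+CR and from 0 to 1 in HF+Ex against LF+Ex. Differences that changed sign ranged from -0.38 to 1.20 for Spp1 in HF against LF. The ranges were -0.18 to 0.63 for Cdh1, -0.15 to 0.54 for Krt19, -0.30 to 0.15 for Krt7 and -1.03 to 0.55 for Spp1 in LF+CR against LF. They ranged from -0.0628 to 0.70 for Krt19, -0.75 to 0.14 for Krt23 and -0.92 to 0.34 for Spp1 in HF+CR against HF. The ranges were -0.70 to 0.76 for Krt19 and -0.67 to 0.32 for Wfdc2 in LF+Ex against LF. They ranged from -0.100 to 0.092 for Cdh1, -0.20 to 0.21 for Krt19, -0.12 to 0.14 for Krt7, -0.37 to 0.0352 for Spp1 and -0.42 to 0.11 for Wfdc2 in HF+Ex against HF. The ranges were -0.17 to 0.22 for Krt7 and -0.27 to 0.997 for Spp1 in HF+CR against LF+CR. They ranged from -0.18 to 0.10 for Epcam, -1.31 to 0.15 for Krt19 and -0.34 to 0.0981 for Krt7 in HF+Ex against LF+Ex. The ranges were -0.26 to 0.58 for Krt19 and -0.64 to 0.94 for Spp1 in the CR by diet interaction. They ranged from -0.72 to 0.74 for Krt19, -0.32 to 0.36 for Krt23, -0.0429 to 1.53 for Spp1 and -0.49 to 0.50 for Wfdc2 in the Ex by diet interaction.

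Sox9 was below the filter and has no test. Krt7, Epcam and Sox9 lie near or below 1 RPKM in most libraries, where few fragments back each value. Leaving out LF 2 or HF+CR 3, or LF+CR 1 for Krt7 and LF+Ex 1 for Epcam, took these genes below the filter, so no difference without those libraries was computed. With 3 libraries a group, the intervals given set the precision of each difference.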

Other observations

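Each marker also had its own nearest genes over the 18 libraries, chosen here after their values were seen. Epcam was nearest to Fxyd3 (r = 0.93) and Cd24a (0.92), and Krt7 to Bcam (0.93), an adhesion glycoprotein, and to Anxa13 (0.93), an annexin of epithelial cells. Spp1 was nearest to Lum (0.94), a matrix proteoglycan of fibroblasts, and Igfbp7 (0.94). Lum stood at 9.37 RPKM in LF 2 and 18 RPKM in HF+CR 3 and at 1.5 to 5.78 RPKM in the other 16 libraries. Wfdc2 was nearest to Plin4 (0.93), a lipid droplet coat protein, and Pex11a (0.91), a peroxisome membrane protein; within groups these stood at 0.73 and 0.71. Cdh1 was nearest to Rnf111 and Ihh (0.87 each). The points share libraries and diet groups, so these values describe likeness in these libraries.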
